A study of Mus musculus with 10 samples.

Results

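Antigen presentation by MHC class I and class II was followed in mouse kidney through 34 genes, named by symbol and looked up among the 46517 Ensembl gene IDs of each count table. All 34 were found, and all 34 passed the filter on low counts that left 17823 genes for testing. They comprise 9 class I heavy chain genes, the class I light chain gene B2m, the 2 class I-like genes Cd1d1 and Mr1, and 10 genes that supply peptides to class I. The other members are 9 class II genes, the class I regulator gene Nlrc5, the class II regulator gene Ciita and their shared partner Rfx5. Mouse kidney RNA was sequenced in 10 libraries, 1 table of read counts each. Only the labels of the G1-APOL1 and G2-APOL1 libraries name variants of human APOL1. APOL1 is a trypanolytic apolipoprotein, and in people its G1 and G2 alleles raise the risk of kidney disease. The groups were G1-APOL1 (n = 2), G2-APOL1 (n = 2), a group labelled wild type (single mutant), with 3 libraries, and Control, also with 3. G1-APOL1 and G2-APOL1 together are called the risk alleles here. The series title places APOL1 in podocytes, the epithelial cells of the glomerular filter. The labels give no promoter, strain, sex, age or batch, do not say what single mutant stands for, and leave unsaid whether the libraries come from different mice. The p-values therefore measure the spread between these libraries, which may be technical. Transgene reads of human APOL1 are not analysed here, and the genotypes are taken from the labels alone.

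Class I molecules show peptides made inside the cell to CD8 T cells and are displayed by nearly all nucleated cells. Their peptides are cut by the proteasome, moved into the endoplasmic reticulum by the TAP transporter and loaded onto a heavy chain paired with beta-2-microglobulin. Class II molecules show peptides of endocytosed material to CD4 T cells and are made chiefly by dendritic cells, macrophages and B cells, although renal tubular epithelium is known to acquire them under interferon-gamma. The class II heterodimer is escorted by the invariant chain Cd74, and H2-DM exchanges the remnant of Cd74 for a peptide while H2-O restrains H2-DM. Transcription of the class II genes depends on the coactivator CIITA and that of class I genes on its relative NLRC5. Both are held at promoters by a complex of RFX5, its RFX partners, CREB and NF-Y on elements known as the X and Y boxes.

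Promoter stretches of 6 members are shown because class I and class II genes are both known to be read through these boxes. The sequences are those of RefSeq on GRCm38.p6, 5′ to 3′ on the coding strand of each gene. Capitals mark matches to an X box core (ACNNATG), a Y box (GATTGG, or CCAATC when it lies on the other strand) and an interferon-stimulated response element (GAAANNGAA). H2-Eb1 lies at chr17:34305737-34305838 (plus strand), H2-Ob at chr17:34238775-34238874 (plus), H2-Aa at chr17:34287854-34287953 (minus), H2-Q6 at chr17:35424720-35424819 (plus), H2-Q7 at chr17:35439054-35439153 (plus) and B2m at chr2:122147537-122147646 (plus).
H2-Eb1: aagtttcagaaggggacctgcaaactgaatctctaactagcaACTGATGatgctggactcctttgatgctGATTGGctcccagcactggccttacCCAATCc
H2-Ob: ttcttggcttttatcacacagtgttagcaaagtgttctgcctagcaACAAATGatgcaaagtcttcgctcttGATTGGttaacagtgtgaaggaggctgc
H2-Aa: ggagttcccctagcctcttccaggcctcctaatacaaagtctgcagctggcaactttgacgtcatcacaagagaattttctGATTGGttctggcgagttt
H2-Q6: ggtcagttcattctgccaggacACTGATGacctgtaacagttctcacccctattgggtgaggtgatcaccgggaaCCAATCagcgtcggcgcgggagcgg
H2-Q7: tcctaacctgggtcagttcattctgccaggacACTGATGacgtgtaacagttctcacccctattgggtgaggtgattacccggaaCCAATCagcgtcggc
B2m: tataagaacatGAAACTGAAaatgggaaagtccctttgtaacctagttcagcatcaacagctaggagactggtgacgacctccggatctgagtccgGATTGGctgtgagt
In these 6 stretches the Y box reads GATTGG in the class II genes and in B2m, and CCAATC in the H2-Q genes. H2-Eb1 holds it in both directions. The X box core letters stand upstream of the Y box in H2-Eb1, H2-Ob, H2-Q6 and H2-Q7, and the stretches of H2-Aa and B2m hold none. H2-Aa has a match on the other strand 232 bases before its start, outside the stretch shown.

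Of the 34 members, 26 had a RefSeq promoter window, and the 250 bases before the start were searched on both strands. The Y box was present in 18 of the 26 members and in 14.6% of all 32851 windows. The X box core was present in 14 members and in 26.7% of all windows. Both lay in the same window in 11 members and in 3.85% of all windows, and the interferon-stimulated element lay in 4 members and in 7.13% of all windows. All 7 class II genes with a window carried the Y box as GATTGG. Of 8 class I heavy chain genes, 7 carried it as CCAATC, and 1 of these, H2-T22, carried it in both directions. Among the 8 peptide supply genes with a window the Y box was present in 2, Psmb9 and Tap1. A match of letters is a description of the sequence and not a binding site.

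Library totals ran from 27596391 to 34815153 counts. Levels are counts per 1000000 counts of a library (CPM), on library sizes scaled by the trimmed mean of M values (TMM), and 3 counts in a library correspond to 0.0862 to 0.109 CPM of its unscaled total. The members took 0.504 to 0.976% of all counts with the risk alleles, 0.151 to 0.205% in wild type (single mutant), and 0.222, 0.634 and 0.167% in Control replicates 1, 2 and 3. Kidney markers were present in each library but separated the groups: Lrp2, the endocytic receptor of the proximal tubule, was at 531 to 856 CPM with the risk alleles and at 1693 to 2175 CPM in the 6 other libraries. The 4 proximal tubule markers summed to 2071 to 2403 CPM in G1-APOL1, 3649 to 4302 CPM in G2-APOL1, 9348 to 10947 CPM in wild type (single mutant) and 9219 to 10214 CPM in Control, and all 4 fell against Control. Markers of injured tubules also separated the groups: Lcn2 and Havcr1 summed to 256 to 621 CPM with the risk alleles and to 4.53 to 8.21 CPM in the 6 other libraries. The part of either tubule list in the results of the members was not tested.

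Control replicate 2 stood apart from the other libraries not labelled with a risk allele, and it did so in the members. Its level was above those of all 5 other such libraries in 30 of 34 members, against 18.7% of all genes tested. The median of the ratio between Control replicate 2 and the mean of Control replicates 1 and 3 was 2.51 over the members and 0.9996 over all genes tested. It was 5.85 over the class II genes, 2.42 over the class I heavy chains and 2.16 over the peptide supply genes. Ciita stood at 6.71 times and Nlrc5 at 5.87 times the mean of the other Control libraries. The ratio was 0.954 over 16 genes of the constitutive proteasome, 1.08 over 8 macrophage and monocyte markers, 1.19 over 7 dendritic cell markers, 1.87 over 8 T and NK cell markers and 2.41 over 5 B cell markers. Irf1, a transcription factor of the interferon response, stood at 3.62 times the other Control libraries. The labels set this library apart in no way, and results of the members against Control are given below with and without it. It was singled out by its levels in the members themselves. Fold changes, counts and p-values of the members without it are therefore a description and no independent support.

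**Figure D1:**
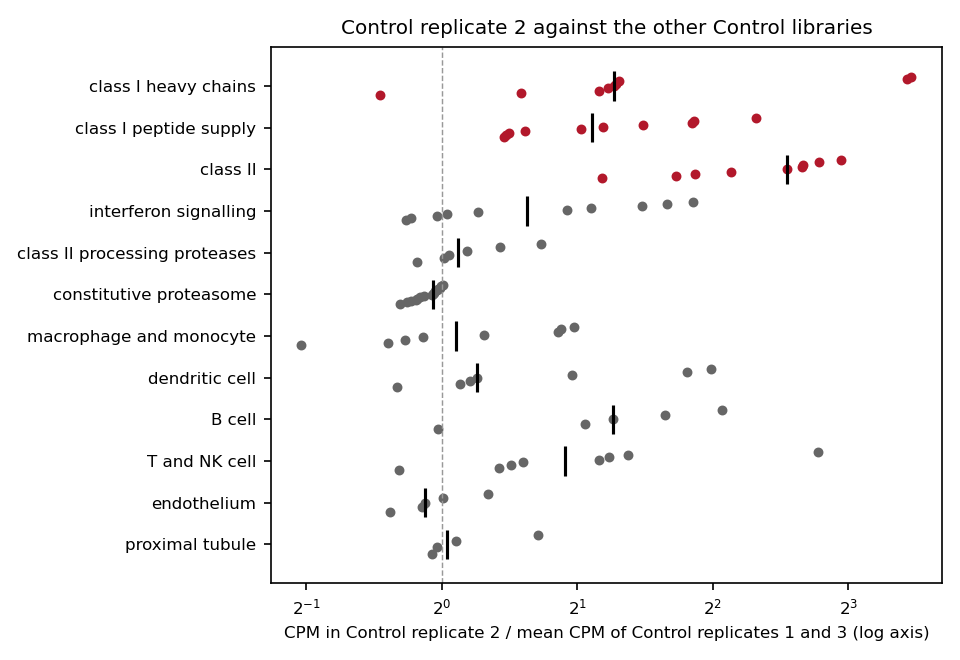
Ratio of CPM in Control replicate 2 to the mean CPM of Control replicates 1 and 3, on a log axis with base 2, for members (red) and context lists (grey); points are genes, bars are medians, and a gene at 0 in both other Control libraries is left out. Among the lists plotted the class II genes have the highest median, 5.85, while the constitutive proteasome sits at 0.954.

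The first question is how kidneys with the risk alleles (4 libraries) differed from those of the other groups. Of the 34 members, 9 rose and 0 fell against Control at a Benjamini-Hochberg adjusted p under 0.05 in edgeR's quasi-likelihood test, where 19.3% of all genes tested rose. The members that rose were Psme1, Psme2, Tapbp, Tapbpl, Psmb10, Tap2, H2-K1, Mr1 and H2-Aa. Without Control replicate 2, 28 members rose and 0 fell, where 17.2% of all genes rose. That library was singled out by its high levels in these same members, so this count is no independent support. Against wild type (single mutant) 23 members rose and 0 fell, where 20.6% of all genes rose, and 26 rose without Control replicate 2 in the fit, which then gave 20.8% over all genes. Control replicate 2 is on neither side of that comparison. These counts moved with single libraries. Against Control they ran from 4 to 28 over the 10 fits that left out 1 library each, with 4 members without G1-APOL1 replicate 2, G2-APOL1 replicate 1, Control replicate 1 or Control replicate 3 and 5 without G1-APOL1 replicate 1 or wild type (single mutant) replicate 1. For wild type (single mutant) they ran from 12 to 26, with 12 when replicate 2 of that group was left out. The median log2 fold change over the members was 0.80 against Control, 1.55 against Control without its replicate 2, and 1.49 against wild type (single mutant). The same medians over all genes tested were 0.00, 0.02 and 0.00. All 4 risk allele libraries lay above every wild type (single mutant) library in 26 of 34 members, where 21.6% of all genes did so. They lay above every Control library in 3 members (Mr1, Tapbp and Psme1), where 20.7% of all genes did so. These 2 comparisons share the risk allele libraries.

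**Figure D2:**
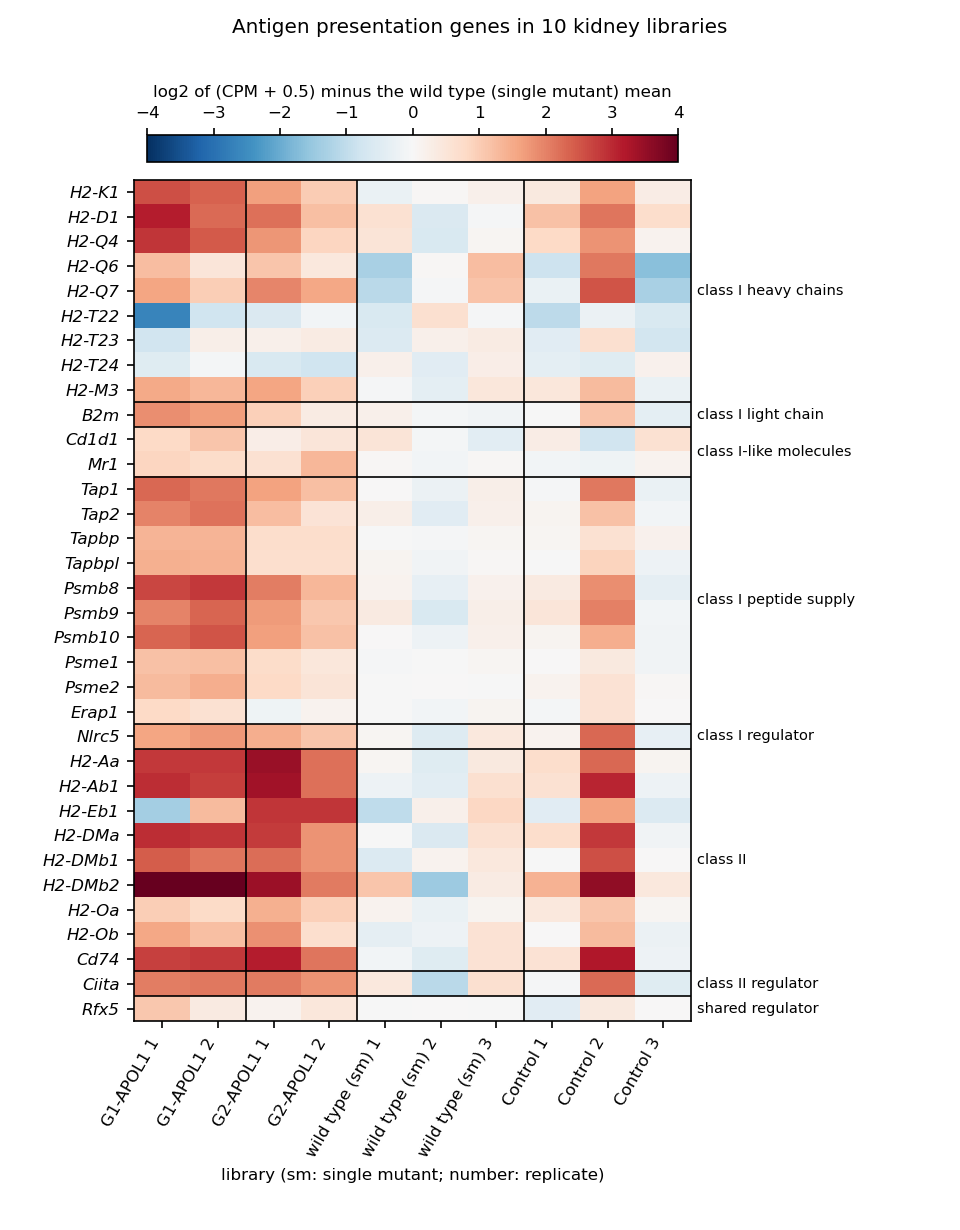
Level of each member (rows, grouped by role) in each library (columns) as log2 of CPM + 0.5 minus the mean of the wild type (single mutant) libraries; red is higher and blue is lower. The 4 risk allele columns and Control 2 are red in most rows, whereas in H2-T22 and H2-T24 all 5 of these columns lie below the wild type (single mutant) mean.

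**Figure D3:**
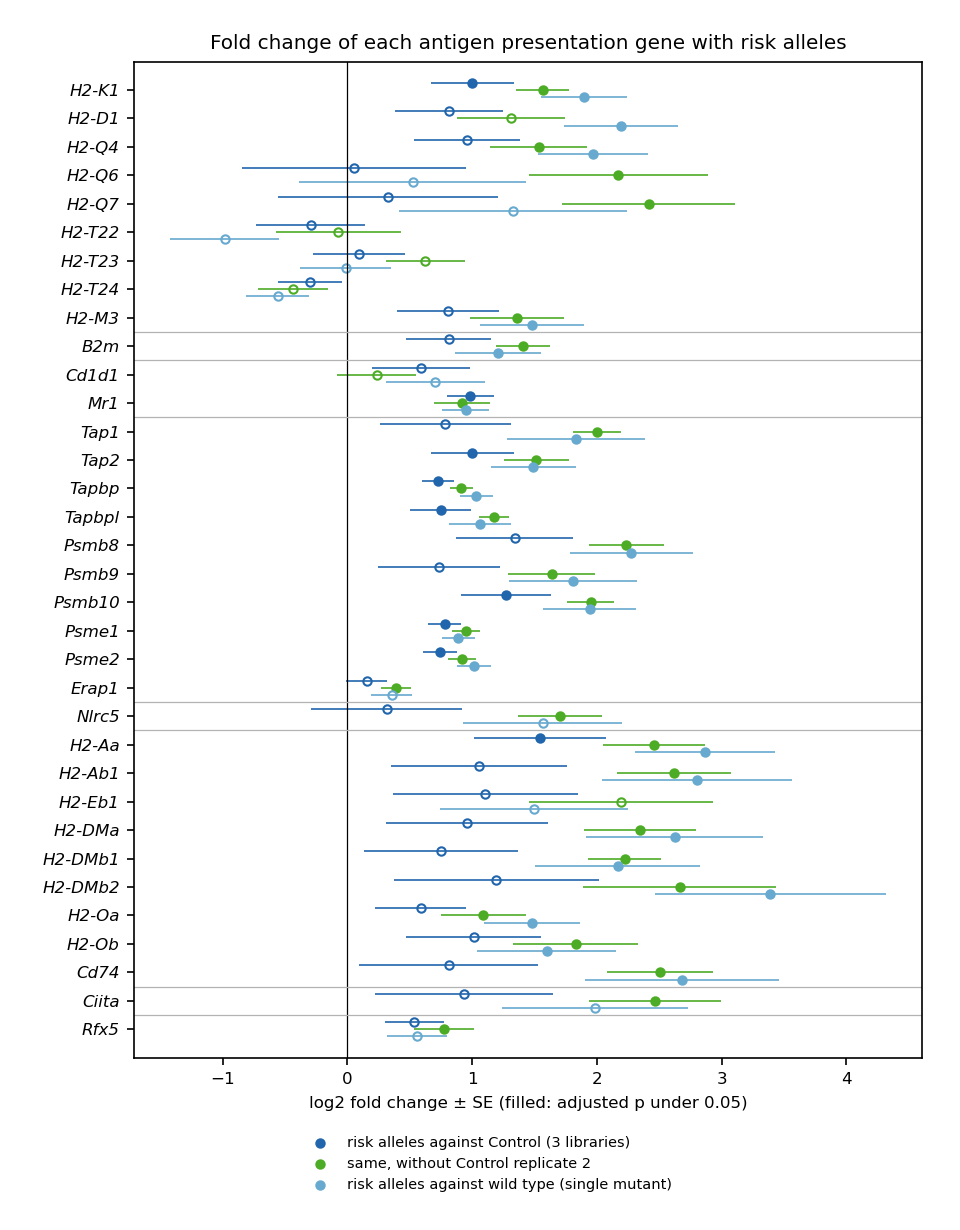
log2 fold change ± SE of each member for the risk alleles against 3 Control libraries (dark blue), against Control without its replicate 2 (green) and against wild type (single mutant) (light blue); filled points passed an adjusted p of 0.05. H2-Q6, H2-Q7, Cd74, H2-Ab1 and Ciita are among the members that move furthest to the right when Control replicate 2 is left out.

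Levels per kilobase of annotated exon (RPKM) were led by B2m and Cd74 in every group. In G1-APOL1 kidneys B2m stood at 1623 ± 159 RPKM (mean ± SD, n = 2) and Cd74 at 853 ± 48.6 RPKM. In G2-APOL1 kidneys B2m stood at 761 ± 221 RPKM and Cd74 at 819 ± 381 RPKM (n = 2), which overlap. In wild type (single mutant) kidneys B2m stood at 481 ± 63.8 RPKM and Cd74 at 129.9 ± 50.5 RPKM (n = 3). In Control kidneys B2m stood at 633 ± 375 RPKM and Cd74 at 476 ± 571 RPKM (n = 3). H2-D1 was the next in each group, and H2-Ob was the lowest member in each, at 0.764 RPKM in G1-APOL1 and 0.249 RPKM in wild type (single mutant) kidneys.

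Class I heavy chains present the peptide. H2-K1 (ENSMUSG00000061232.14, GRCm38 chromosome 17, 33996017 to 34000347), a classical class I heavy chain, was at 1406 and 1207 CPM in G1-APOL1 kidneys, 737 and 478 CPM in G2-APOL1 kidneys, 199, 246 and 273 CPM in wild type (single mutant) and 311, 732 and 290.4 CPM in Control. Each risk allele library was above each wild type (single mutant) library, and Control replicate 2 lay within the G2-APOL1 range. The log2 fold change of the risk alleles was 1.003 ± 0.33 (SE) against Control (adjusted p = 0.0408), 1.57 ± 0.21 without Control replicate 2 (adjusted p = 0.00161) and 1.90 ± 0.34 against wild type (single mutant) (adjusted p = 0.00254). Leaving out 1 library at a time, the Control comparison of H2-K1 was called in 3 of 10 fits.

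H2-D1, the other classical heavy chain in this list, was at 1847 and 1002 CPM in G1-APOL1, 968 and 478 CPM in G2-APOL1, 320.2, 139.7 and 204 CPM in wild type (single mutant) and 477, 914 and 339.9 CPM in Control. G2-APOL1 replicate 2 was level with Control replicate 1, while all 4 risk allele libraries lay above wild type (single mutant). H2-D1 rose against wild type (single mutant) by 2.20 ± 0.46 on the log2 scale (adjusted p = 0.0052). Against Control its value was 0.81 ± 0.43 (adjusted p = 0.17), and 1.31 ± 0.44 without Control replicate 2 (adjusted p = 0.0506). H2-Q4, a nonclassical heavy chain of the Q region, was at 169 and 129 CPM in G1-APOL1, 79.5 and 42.6 CPM in G2-APOL1, 33.5, 14.8 and 24.6 CPM in wild type (single mutant) and 40.3, 81.5 and 25.5 CPM in Control. Its order of libraries resembled that of H2-K1, with G1-APOL1 highest and Control replicate 2 close to the higher G2-APOL1 library. H2-Q4 rose against wild type (single mutant) by 1.97 ± 0.44 (adjusted p = 0.00734), was at 0.96 ± 0.42 against Control (adjusted p = 0.105) and rose there by 1.53 ± 0.39 without Control replicate 2 (adjusted p = 0.0189).

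B2m (chromosome 2, 122147686 to 122153083), the light chain that all class I molecules need at the cell surface, was at 1492 and 1299 CPM in G1-APOL1, 789 and 520.0 CPM in G2-APOL1, 477, 388 and 377 CPM in wild type (single mutant) and 407, 913 and 313 CPM in Control. The G1-APOL1 libraries stood above all others, and G2-APOL1 replicate 2 was close to wild type (single mutant) replicate 1. B2m rose against wild type (single mutant) by 1.21 ± 0.35 (adjusted p = 0.022), and against Control it was at 0.81 ± 0.34 (adjusted p = 0.0912) or, without Control replicate 2, 1.41 ± 0.22 (adjusted p = 0.00247). Its call against wild type (single mutant) held in 6 of 10 fits that left out 1 library each.

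Of the 9 heavy chain genes, 4 rose against wild type (single mutant) and 0 fell: H2-K1, H2-D1, H2-Q4 and H2-M3, which presents N-formylated peptides. Against Control 1 rose, and 5 rose without Control replicate 2. Of all genes tested, 20.6% rose against wild type (single mutant), 19.3% against Control and 17.2% without Control replicate 2. The other 5, H2-Q6, H2-Q7, H2-T22, H2-T23 and H2-T24, ran from -0.98 to 1.33 in log2 fold change against wild type (single mutant). H2-T23, which encodes Qa-1, was at 48.6 and 97.3 CPM in G1-APOL1, 95.2 and 104 CPM in G2-APOL1, 57.3, 96.5 and 105 CPM in wild type (single mutant) and 60.7, 129 and 49.9 CPM in Control, and its libraries overlapped across all groups. H2-T23 was chosen as the example after its values were seen.

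The class I-like genes behaved differently from each other. Mr1, which presents microbial vitamin B metabolites to MAIT cells, was at 13.1 and 11.9 CPM in G1-APOL1, 11.0 and 18.3 CPM in G2-APOL1, 7.32, 6.47 and 7.22 CPM in wild type (single mutant) and 6.45, 6.19 and 7.84 CPM in Control. All 4 risk allele libraries exceeded all 6 others, and Control replicate 2 did not stand out. Mr1 rose by 0.99 ± 0.19 against Control (adjusted p = 0.0039) and by 0.95 ± 0.19 against wild type (single mutant) (adjusted p = 0.00412), and each of these calls held in 10 of 10 fits without 1 library. Its value against Control was 0.92 ± 0.22 without Control replicate 2 (adjusted p = 0.0162). Cd1d1, which presents lipids, ran from 1.30 to 6.15 CPM with overlapping groups and was called in neither comparison.

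**Figure D4:**
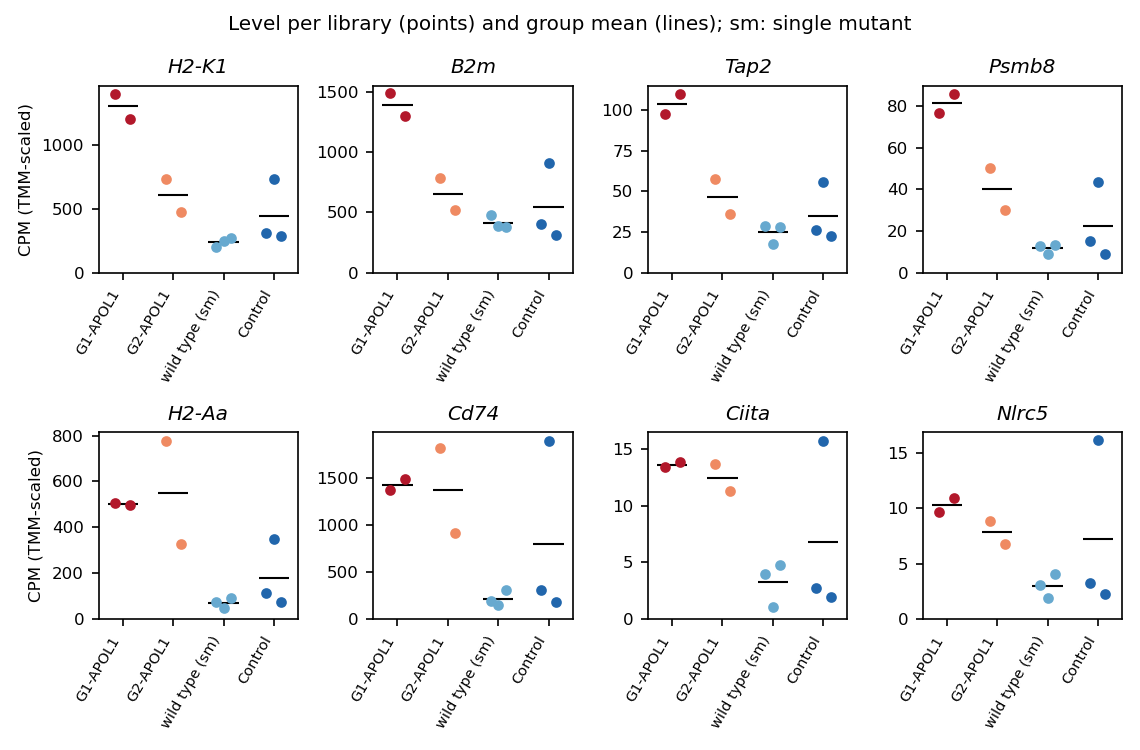
Level in CPM of 4 class I genes (upper row) and 4 class II genes or regulators (lower row) in each library (points), with the group mean (line); each panel has its own linear axis from 0. In H2-K1, B2m, Tap2 and Psmb8 the G1-APOL1 points lie above the G2-APOL1 points, whereas in H2-Aa and Cd74 the ranges of G1-APOL1 and G2-APOL1 overlap, and in all 8 panels 1 Control point lies far above the other Control points.

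Among the 10 peptide supply genes, 6 rose and 0 fell against Control, 10 rose without Control replicate 2, and 9 rose against wild type (single mutant). The shares of all genes that rose were 19.3%, 17.2% and 20.6% in the same order. Psme1 and Psme2 encode the subunits of PA28, the proteasome activator induced by interferon-gamma. Psme2 (chromosome 14, 55587441 to 55591113) was at 136 and 157 CPM in G1-APOL1, 98.4 and 81.6 CPM in G2-APOL1, 56.6, 56.9 and 56.7 CPM in wild type (single mutant) and 63.0, 84.1 and 58.3 CPM in Control. Psme1 was at 161 and 164 CPM in G1-APOL1, 118 and 97.2 CPM in G2-APOL1, 68.5, 71.2 and 74.6 CPM in wild type (single mutant) and 71.8, 94.2 and 65.2 CPM in Control. In both genes the wild type (single mutant) libraries lay close together, and Control replicate 2 stood within the G2-APOL1 range of Psme2 and just below that of Psme1. Psme2 rose by 0.75 ± 0.14 against Control (adjusted p = 0.00309) and by 1.02 ± 0.14 against wild type (single mutant) (adjusted p = 0.000648). Psme1 rose by 0.78 ± 0.13 against Control (adjusted p = 0.0022) and by 0.89 ± 0.13 against wild type (single mutant) (adjusted p = 0.00104). Both genes kept their calls in 10 of 10 fits without 1 library in each comparison, and without Control replicate 2 the values against Control were 0.92 ± 0.11 for Psme2 (adjusted p = 0.00112) and 0.95 ± 0.11 for Psme1 (adjusted p = 0.000915). Psme2 shares 18.4% of its 100-base stretches with the copy Psme2b, so its counts may be split with it.

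Tapbp encodes tapasin, which bridges class I to the TAP transporter. It was at 258 and 257 CPM in G1-APOL1, 165 and 166 CPM in G2-APOL1, 98.6, 96.5 and 107 CPM in wild type (single mutant) and 107, 155 and 112 CPM in Control. The 4 risk allele libraries lay above the 6 others, with Control replicate 2 next below them. Tapbp rose by 0.73 ± 0.13 against Control (adjusted p = 0.00265) and by 1.03 ± 0.13 against wild type (single mutant) (adjusted p = 0.000468), in 10 of 10 fits without 1 library each, with 0.91 ± 0.09 against Control when its replicate 2 was left out (adjusted p = 0.000589). Its relative Tapbpl, which encodes the peptide editor TAPBPR, was at 36.7 and 35.6 CPM in G1-APOL1, 21.7 and 21.7 CPM in G2-APOL1, 14.4, 12.1 and 13.7 CPM in wild type (single mutant) and 13.3, 25.2 and 11.5 CPM in Control. Here Control replicate 2 exceeded both G2-APOL1 libraries. Tapbpl rose by 0.75 ± 0.24 against Control (adjusted p = 0.0388), a call held in 2 of 10 fits without 1 library, by 1.18 ± 0.12 without Control replicate 2 (adjusted p = 0.000642) and by 1.06 ± 0.25 against wild type (single mutant) (adjusted p = 0.00855).

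Tap2, a subunit of the TAP peptide transporter, was at 97.4 and 110.0 CPM in G1-APOL1, 57.3 and 35.8 CPM in G2-APOL1, 28.7, 17.3 and 28.1 CPM in wild type (single mutant) and 26.1, 55.4 and 22.5 CPM in Control. G1-APOL1 lay highest, and Control replicate 2 stood within the G2-APOL1 range. Tap2 rose by 1.003 ± 0.33 against Control (adjusted p = 0.0426), called in 3 of 10 fits without 1 library, by 1.52 ± 0.26 without Control replicate 2 (adjusted p = 0.00407) and by 1.49 ± 0.34 against wild type (single mutant) (adjusted p = 0.0082). Its partner Tap1 rose against wild type (single mutant) by 1.83 ± 0.55 (adjusted p = 0.0269) and was at 0.78 ± 0.53 against Control (adjusted p = 0.272), or 2.001 ± 0.19 without Control replicate 2 (adjusted p = 0.000528). Control replicate 2 held 47.3 CPM of Tap1, between the 2 G1-APOL1 values of 53.5 and 46.8 CPM. Erap1, the aminopeptidase that trims peptides in the endoplasmic reticulum, was not called against either group, with a log2 fold change of 0.16 ± 0.16 when set against Control and of 0.36 ± 0.16 for wild type (single mutant). It rose against Control by 0.39 ± 0.12 (adjusted p = 0.0422) without Control replicate 2. Erap1 overlaps the gene Cast on the opposite strand over 834 exon bases, and no strand setting of the counting is given.

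Psmb8, Psmb9 and Psmb10 are the catalytic subunits of the immunoproteasome, which takes the place of the constitutive proteasome under interferon. Psmb8 was at 76.8 and 85.7 CPM in G1-APOL1, 50.01 and 29.8 CPM in G2-APOL1, 12.9, 9.17 and 13.1 CPM in wild type (single mutant) and 15.1, 43.3 and 8.99 CPM in Control. It rose against wild type (single mutant) by 2.28 ± 0.49 (adjusted p = 0.00624). Against Control it was at 1.34 ± 0.47 (adjusted p = 0.0511), and rose by 2.24 ± 0.30 without Control replicate 2 (adjusted p = 0.00152). Psmb10 was at 84.3 and 95.1 CPM in G1-APOL1, 51.3 and 36.9 CPM in G2-APOL1, 16.5, 13.9 and 18.7 CPM in wild type (single mutant) and 17.7, 45.5 and 14.8 CPM in Control. All risk allele libraries of both genes were above the wild type (single mutant) libraries, and Control replicate 2 lay inside the G2-APOL1 range. Psmb10 rose by 1.27 ± 0.36 against Control (adjusted p = 0.0225), called in 6 of 10 fits without 1 library, by 1.95 ± 0.19 without Control replicate 2 (adjusted p = 0.000528) and by 1.94 ± 0.37 against wild type (single mutant) (adjusted p = 0.00341).

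The level of each immunosubunit was set against that of the constitutive subunit it displaces, as a ratio of RPKM within a library, which does not depend on library scaling. Psmb10 over Psmb7 was 1.83 and 2.30 in G1-APOL1, 1.11 and 0.845 in G2-APOL1, 0.249, 0.181 and 0.351 in wild type (single mutant) and 0.295, 0.828 and 0.229 in Control. The lengths used were 1705 bases for Psmb10 and 3421 bases for Psmb7, and whether a ratio exceeds 1 depends on them, while the comparison between libraries does not. Psmb8 over Psmb5 was 0.235 and 0.408 in G1-APOL1, 0.188 and 0.143 in G2-APOL1, 0.0460, 0.0345 and 0.0437 in wild type (single mutant) and 0.0447, 0.194 and 0.0419 in Control. Psmb9 over Psmb6 ran from 0.0536 to 0.111 with the risk alleles, from 0.0128 to 0.0316 in wild type (single mutant), and was 0.0283, 0.0937 and 0.0214 in Control. Every risk allele library exceeded every wild type (single mutant) library in each of the 3 ratios.

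Of 16 genes of the constitutive proteasome and its other activators, 0 rose and 3 fell against Control, where 18% of all genes fell, with a median log2 fold change of -0.05, whereas with library totals in place of TMM 6 of the 16 rose and 1 fell. That scaling gave a median of 0.22 over the 16 and of 0.28 over all genes, and without Control replicate 2 the TMM fit gave 0 higher and 2 lower. Psmb7 fell by 0.43 (adjusted p = 0.0235), Psme3, which encodes the nuclear activator PA28-gamma, by 0.27 (adjusted p = 0.0238), and Psme4, which encodes the activator PA200, by 0.66 (adjusted p = 0.00357). Psmb5 was at -0.04 ± 0.20 and Psmb6 at 0.03 ± 0.12, neither called.

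Class II genes had the largest differences among the members. Of the 9, 8 rose and 0 fell against wild type (single mutant), where 20.6% of all genes rose. The median log2 fold change was 2.62, and H2-Eb1 was not called. Against Control 1 of the 9 rose (H2-Aa), where 19.3% of all genes rose, with a median of 1.01. Without Control replicate 2, 8 rose, where 17.2% of all genes rose, with a median of 2.34. All 4 risk allele libraries lay above every Control library in 0 of the 9, where 20.7% of all genes did so. H2-Aa (chromosome 17, 34282744 to 34287823), the alpha chain of the I-A molecule, was at 505 and 496 CPM in G1-APOL1, 777 and 327 CPM in G2-APOL1, 74.5, 50.1 and 91.6 CPM in wild type (single mutant) and 115, 349 and 75.4 CPM in Control. The risk allele libraries were all above the wild type (single mutant) libraries, and Control replicate 2 was above G2-APOL1 replicate 2. H2-Aa rose by 1.55 ± 0.53 against Control (adjusted p = 0.0462), called in 2 of 10 fits without 1 library, by 2.46 ± 0.41 without Control replicate 2 (adjusted p = 0.00339) and by 2.87 ± 0.56 against wild type (single mutant) (adjusted p = 0.00384).

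H2-Ab1, the beta chain of I-A, was at 589 and 516 CPM in G1-APOL1, 767 and 346 CPM in G2-APOL1, 64.5, 55.6 and 118 CPM in wild type (single mutant) and 115, 620.3 and 65.6 CPM in Control. Cd74, the invariant chain, was at 1374 and 1489.7 CPM in G1-APOL1, 1827 and 923 CPM in G2-APOL1, 191, 149.9 and 313 CPM in wild type (single mutant) and 314, 1903 and 180.1 CPM in Control. Control replicate 2 held more Cd74 than any of the 9 other libraries and more H2-Ab1 than 3 of the 4 risk allele libraries. H2-Ab1 rose against wild type (single mutant) by 2.81 ± 0.76 (adjusted p = 0.0177), and Cd74 by 2.69 ± 0.78 (adjusted p = 0.0232). Leaving out 1 library at a time, this call held in 8 of 10 fits for H2-Ab1 and in 6 of 10 for Cd74. Against Control H2-Ab1 was at 1.06 ± 0.71 (adjusted p = 0.27) and Cd74 at 0.81 ± 0.72 (adjusted p = 0.405). Both rose against Control once its replicate 2 was left out, H2-Ab1 by 2.62 ± 0.46 (adjusted p = 0.00433) and Cd74 by 2.50 ± 0.42 (adjusted p = 0.00373). In kidney measured in bulk, more cells of a type and more RNA per cell cannot be told apart.

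The peptide exchange genes of class II followed the same pattern. H2-DMa rose against wild type (single mutant) by 2.62 ± 0.71 (adjusted p = 0.0171), H2-DMb1 by 2.17 ± 0.66 (adjusted p = 0.0281) and H2-DMb2 by 3.39 ± 0.93 (adjusted p = 0.0182). The genes of H2-O, H2-Oa and H2-Ob, rose by 1.48 ± 0.39 (adjusted p = 0.0149) and 1.60 ± 0.55 (adjusted p = 0.0466). None of the 5 was called against Control, and all 5 rose without Control replicate 2. H2-Oa and H2-Ob stayed at or below 5.78 CPM in every library.

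Ciita and Nlrc5 encode the coactivators of class II and class I transcription and were expressed at a low level. Ciita was at 13.4 and 13.8 CPM in G1-APOL1, 13.6 and 11.3 CPM in G2-APOL1, 3.97, 1.10 and 4.77 CPM in wild type (single mutant) and 2.78, 15.7 and 1.91 CPM in Control. Nlrc5 was at 9.65 and 10.9 CPM in G1-APOL1, 8.83 and 6.80 CPM in G2-APOL1, 3.11, 1.86 and 4.09 CPM in wild type (single mutant) and 3.26, 16.1 and 2.23 CPM in Control. In both, Control replicate 2 was the highest of the 10 libraries, and the 4 risk allele libraries were above the 5 remaining ones. Neither was called over all libraries: Ciita was at 0.93 ± 0.71 against Control (adjusted p = 0.332) and 1.99 ± 0.75 against wild type (single mutant) (adjusted p = 0.062). Nlrc5 was at 0.31 ± 0.60 (adjusted p = 0.713) and 1.57 ± 0.64 (adjusted p = 0.0794) in the same comparisons. With Control replicate 2 left out, Ciita rose by 2.47 ± 0.53 against Control (adjusted p = 0.0098) and by 1.98 ± 0.43 against wild type (single mutant) (adjusted p = 0.00804). Nlrc5 then rose by 1.70 ± 0.34 against Control (adjusted p = 0.00722) and by 1.56 ± 0.29 against wild type (single mutant) (adjusted p = 0.00357). Control replicate 2 is on neither side of the wild type (single mutant) comparison. There the fold changes hardly moved, and the SE fell from 0.75 to 0.43 for Ciita and from 0.64 to 0.29 for Nlrc5.

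Rfx5, the DNA-binding subunit that both coactivators need, was at 20.4 and 12.1 CPM in G1-APOL1, 10.4 and 12.9 CPM in G2-APOL1, 9.31, 9.46 and 9.27 CPM in wild type (single mutant) and 6.70, 12.4 and 9.39 CPM in Control. G1-APOL1 replicate 1 was the highest, and Control replicate 2 lay among the other risk allele libraries. Rfx5 was at 0.54 ± 0.24 against Control (adjusted p = 0.107), rose there by 0.78 ± 0.24 without Control replicate 2 (adjusted p = 0.0413) and was at 0.56 ± 0.24 against wild type (single mutant) (adjusted p = 0.0915). Of its 100-base stretches 18.5% recur in B230398E01Rik, which overlaps it on the opposite strand. Of the 6 other genes of the promoter complex (Rfxap, Rfxank, Nfya, Nfyb, Nfyc and Creb1), 0 were called against Control, with or without its replicate 2, with a median of 0.15. With library totals in place of TMM, 4 of the 6 rose against Control. In the TMM fit 1 fell against wild type (single mutant), Nfyc at -0.32 ± 0.08 (adjusted p = 0.00899).

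Class I was then set against class II. Of 20 class I genes (heavy chains, B2m and peptide supply), 7 rose against Control and 14 rose relative to wild type (single mutant), with median log2 fold changes of 0.76 and 1.27. Of the 9 class II genes, 1 and 8 rose in the same comparisons, with medians of 1.01 and 2.62. Over all genes tested, 19.3% and 20.6% rose there. The level of a class was taken as the median, over its genes, of log2 of CPM + 0.5 minus the mean of wild type (single mutant), computed for each library. The class I level was 1.54 and 1.42 in G1-APOL1, 1.17 and 0.70 in G2-APOL1, 0.01, -0.12 and 0.19 in wild type (single mutant) and 0.05, 1.23 and -0.13 in Control. The class II level was 2.72 and 2.77 in G1-APOL1, 2.87 and 2.07 in G2-APOL1, -0.12, -0.43 and 0.56 in wild type (single mutant) and 0.59, 2.59 and -0.13 in Control. The class I level minus the class II level was -1.19 and -1.36 in G1-APOL1 and -1.70 and -1.37 in G2-APOL1. It was 0.13, 0.31 and -0.38 in wild type (single mutant) and -0.55, -1.36 and -0.00 in Control. Relative to wild type (single mutant), class II thus stood more than 1 log2 unit above class I in all 4 risk allele libraries and in Control replicate 2. In the 5 other libraries the classes lay within 0.55 of each other. The difference is given as a description, without a test over the members.

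**Figure D5:**
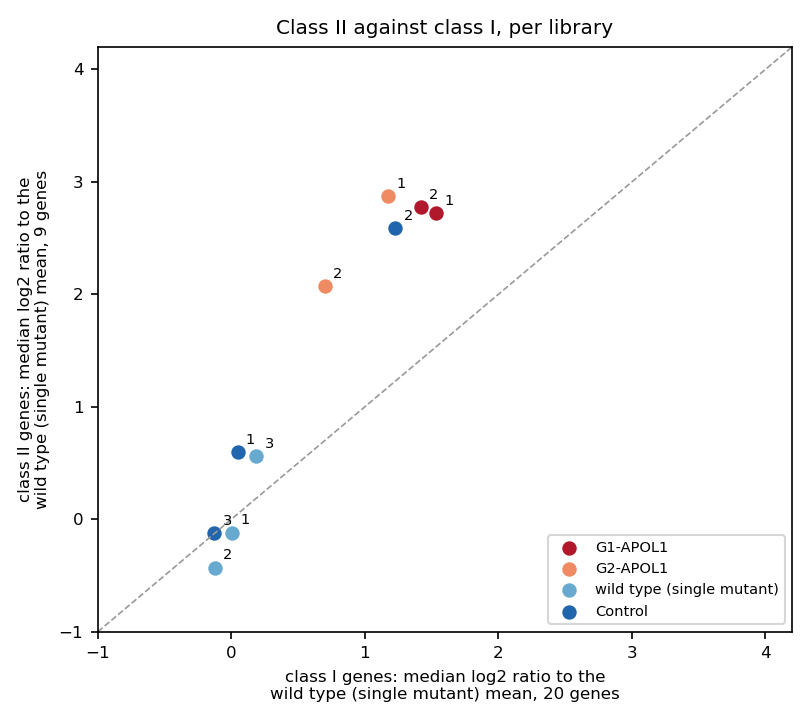
Class II level (9 genes, vertical axis) against class I level (20 genes, horizontal axis) in each library, both as the median log2 ratio to the wild type (single mutant) mean; numbers are replicates and the dashed line marks equal levels. The risk allele libraries and Control 2 lie above the line by 1.19 to 1.70, and the other 5 libraries lie within 0.55 of it.

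G1-APOL1 and G2-APOL1 were also each compared with Control. Of the 34 members, 11 rose and 0 fell in G1-APOL1, where 19.5% of all genes rose, and 10 of the 11 were class I genes of the 20, the other being Mr1. The count for G1-APOL1 was 5 without G1-APOL1 replicate 1 and 6 without G1-APOL1 replicate 2. In G2-APOL1, 1 member rose, Mr1 at 1.10 ± 0.22 (adjusted p = 0.00848), where 12.7% of all genes rose, and 0 members rose without G2-APOL1 replicate 2. Without Control replicate 2, 26 members rose in G1-APOL1, where 18% of all genes rose, and 20 rose in G2-APOL1, where 11.2% of all genes rose. In that fit the class I genes had a median log2 fold change of 1.88 in G1-APOL1 and 0.88 in G2-APOL1, and the class II genes of 2.39 in G1-APOL1 and 2.09 in G2-APOL1. These comparisons share the Control libraries.

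Tested directly, G2-APOL1 against G1-APOL1 gave 1 member lower and 0 higher, where 2.88% of all genes were lower. Psme2 was lower in G2-APOL1 by a log2 fold change of -0.70 ± 0.18 (adjusted p = 0.0482). The next members by p did not pass: Tapbp was at -0.64 ± 0.17 (adjusted p = 0.0544) and Psme1 at -0.59 ± 0.17 (adjusted p = 0.0732). The median over the 20 class I genes was -0.72, over the 9 class II genes -0.03 and over all genes tested 0.04. Of the 34 members, 10 had an unadjusted p under 0.05, and 9 of these were class I genes, while 4371 of all 17823 genes tested did. The call of Psme2 was not stable: leaving out 1 library at a time, 0 members were lower in 8 of 10 fits, 1 without Control replicate 3 and 9 without Control replicate 2. Without Control replicate 2, 9 members were lower, where 3.15% of all genes were. They were H2-K1, B2m, Tap2, Tapbp, Tapbpl, Psmb10, Psme1, Psme2 and Erap1, all of class I. Control replicate 2 is on neither side of this comparison and bears on it through the scaling and spread that all libraries share. G1-APOL1 kidneys also had more of the tubular injury marker Havcr1, at 380.4 and 268 CPM, than G2-APOL1 kidneys, at 153 and 55.3 CPM, which was not called (log2 fold change -1.64, adjusted p = 0.073). The part of injury in the difference in class I was not tested.

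Between wild type (single mutant) and Control, the groups not labelled with a risk allele, edgeR called 0 of 34 members, at 0.0% of all genes tested. An unadjusted p under 0.05 was reached by 7 members, of which 5 were class II genes. Of all 17823 genes tested, 724 had an unadjusted p under 0.05. DESeq2 also called 0 members. The median log2 fold change of wild type (single mutant) against Control was -0.67 over the members and -1.41 over the class II genes. Without Control replicate 2 it was 0.02 over the members and -0.19 over the class II genes, and 0 members had an unadjusted p under 0.05.

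Genes on either side of the presentation machinery were read as lists. Of 10 interferon signalling genes tested, 5 rose and 0 fell against Control, 8 rose without Control replicate 2, and 7 rose against wild type (single mutant). The shares of all genes that rose were 19.3%, 17.2% and 20.6% in the same order. Ifngr1 and Ifngr2, the chains of the interferon-gamma receptor, rose against Control by 1.53 ± 0.12 (adjusted p = 7.63e-05) and 1.67 ± 0.13 (adjusted p = 7.15e-05). Irf8, a myeloid transcription factor, rose by 1.26 ± 0.24 (adjusted p = 0.00384). Irf1 was at 0.80 ± 0.44 against Control (adjusted p = 0.183) and rose against wild type (single mutant) by 1.69 ± 0.46 (adjusted p = 0.0177). It rose against Control by 1.71 ± 0.22 without Control replicate 2 (adjusted p = 0.00134). Ifng itself had 3 and 4 counts in G1-APOL1, 6 and 4 in G2-APOL1, 2, 0 and 2 in wild type (single mutant) and 0, 2 and 0 in Control, too few to be tested. Unlike the members, Ifngr1 and Ifngr2 did not stand out in Control replicate 2, with 32.3 and 21.3 CPM.

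The 6 genes read for the preparation of class II peptides encode proteases, except for Ifi30, which encodes a thiol reductase. Of the 6, 5 rose against Control, with or without its replicate 2, and 5 against wild type (single mutant). The shares of all genes that rose were 19.3%, 17.2% and 20.6% in the same order. The median over all 3 Control libraries was 0.74. The 6 summed to 6220 to 6300 CPM in G1-APOL1 but to 2929 to 3793 CPM in G2-APOL1. The sums were 2835 to 3005 CPM in wild type (single mutant) and 2697 to 3334 CPM in Control. All 4 risk allele libraries lay above every Control library in 3 of 6, where 20.7% of all genes did so. Lgmn, named after its values were seen, was at 1509 and 1259 CPM in G1-APOL1 and 730 and 592 CPM in G2-APOL1. The 6 other libraries held 917 to 1268 CPM of Lgmn. Ctss, the cathepsin that cleaves the invariant chain, was at 104 and 111 CPM in G1-APOL1, 123 and 79.0 CPM in G2-APOL1, 7.73, 6.47 and 14.3 CPM in wild type (single mutant) and 24.8, 27.1 and 7.72 CPM in Control. All 4 risk allele libraries lay above the 6 others, and Ctss rose by 2.39 ± 0.45 against Control (adjusted p = 0.00347). Ctsl rose by 1.22 ± 0.21 (adjusted p = 0.00207) and Ctsd by 0.80 ± 0.12 (adjusted p = 0.00138). March1, which encodes the ubiquitin ligase that removes class II from the surface, rose by 0.74 ± 0.18 (adjusted p = 0.0109). Of the chaperones of class I folding, Canx was at -0.39 ± 0.08 (adjusted p = 0.00469), a call lost with library totals in place of TMM, and Calr and Pdia3 were not called. Of 6 costimulation genes, which include the inhibitory ligand genes Cd274 and Pdcd1lg2, 5 rose against Control, where 19.3% of all genes rose. Cd86 rose by 1.92 ± 0.24 (adjusted p = 0.000546), Cd40 by 2.39 ± 0.35 (adjusted p = 0.00113) and Cd80 by 2.12 ± 0.61 (adjusted p = 0.024). Cd274 did not rise. Pdcd1lg2 had 4 and 5 counts in G1-APOL1, 14 and 14 in G2-APOL1, 3, 0 and 1 in wild type (single mutant) and 1, 2 and 0 in Control. It passed the filter on low counts only through G2-APOL1, so its call is no independent support. Of the 6, 4 rose when Control replicate 2 was left out, where 17.2% of all genes rose.

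Markers of macrophages and, in part, of dendritic, T and NK cells rose with the risk alleles, and those of B cells were not called against Control. The counts below stand beside 19.3% of all genes that rose against Control, or 17.2% without its replicate 2. The 8 macrophage and monocyte markers summed to 412 to 473 CPM in G1-APOL1, 401 to 616 CPM in G2-APOL1, 115 to 137 CPM in wild type (single mutant) and 126 to 171 CPM in Control, and all 8 rose against Control, with or without its replicate 2, with a median of 2.13 over all 3 libraries. The 7 dendritic cell markers summed to 38.2 to 42.8 CPM in G1-APOL1, 34.9 to 58.2 CPM in G2-APOL1, 12.4 to 19.9 CPM in wild type (single mutant) and 13.1 to 22.5 CPM in Control, and 4 of 7 rose against Control or 6 of 7 without its replicate 2. The 8 T and NK cell markers summed to 10.4 to 18.1 CPM in G1-APOL1, 16.9 to 25.5 CPM in G2-APOL1, 3.07 to 5.93 CPM in wild type (single mutant) and 3.58 to 10.2 CPM in Control, and 4 of 8 rose, or 5 of 8 without Control replicate 2. The 5 B cell markers summed to 2.96 to 3.40 CPM in G1-APOL1, 3.73 to 5.95 CPM in G2-APOL1, 1.64 to 5.52 CPM in wild type (single mutant) and 2.43 to 5.43 CPM in Control, and 0 of 5 rose. None of these marker genes was at 0 in any library. The part of leukocytes in the rise of the members was not tested. In Control replicate 2, Ptprc, which encodes the leukocyte antigen CD45, was at 1.68 times the other Control libraries, and the median ratios of the marker lists, from 1.08 for macrophages and monocytes to 2.41 for B cells, are given above beside those of the members.

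Several genes of the MHC region varied between libraries of the same genotype, and they are named here after their values were seen. H2-Eb1, the beta chain of the I-E molecule, was at 19.0 and 119 CPM in G1-APOL1, 363 and 357 CPM in G2-APOL1, 23.9, 56.9 and 87.0 CPM in wild type (single mutant) and 35.5, 151 and 33.3 CPM in Control. The G1-APOL1 replicates differed more from each other in H2-Eb1 than in the other class II genes, and G1-APOL1 replicate 1 was the lowest of all 10 libraries. H2-DMb2 ran from 0.658 CPM in wild type (single mutant) replicate 2 to 65.8 CPM in G1-APOL1 replicate 1. H2-Ea-ps, annotated as a polymorphic pseudogene, had 190 and 3296 counts in G1-APOL1 and 113 and 3 in G2-APOL1. It had 359, 0 and 563 counts in wild type (single mutant) and 548, 71 and 11 in Control. H2-T10 was at 1.67 CPM in G2-APOL1 replicate 2, at 1.498 and 2.01 CPM in wild type (single mutant) replicates 2 and 3, and at 20.6 to 48.4 CPM in the 7 other libraries. H2-T22, its near copy, was at 77.4 CPM in G2-APOL1 replicate 2, at 131 and 80.7 CPM in wild type (single mutant) replicates 2 and 3, and at 12.8 to 70.5 CPM in the 7 others. The libraries low in H2-T10 were those high in H2-T22, and the sum of both genes ran from 61.2 to 132 CPM, a 2.16-fold range.

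Reads that fit more than 1 gene bear on these values. H2-T22 shares 31.5% of its 100-base stretches with other genes, most of them with A930015D03Rik on the opposite strand and some with H2-T10. Tapbp shares 14.8% with Gm19412 and Psmb8 8.05% with Gm20496, both on the opposite strand. H2-Q6 shares 13.0% and H2-Q7 11.98%, in part with each other, and H2-DMb1 shares 11.3% with H2-DMb2. H2-Aa, H2-Ab1, H2-Eb1, H2-Ob, Cd74, B2m, Nlrc5 and Psmb10 share none. With near copies summed before the fit, 9 members or sums rose against Control, as did 21 relative to wild type (single mutant). The labels name no strain, and the part of strain in the spread of these MHC region genes was not tested. Of the other genes of the region, 0 of 7 tested were called in either comparison, among them H2-M2 at 1.90 ± 0.86 against Control (adjusted p = 0.113), H2-Q10 at -0.22 ± 0.32 and H2-T10 at -0.29 ± 0.95. Leaving out Control replicate 2, H2-M2 was called higher in both comparisons, at 3.66 ± 0.87 against Control (adjusted p = 0.0148).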

How the data were processed

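Poly(A) RNA of kidney was read as single-end reads of 100 bases on an Illumina HiSeq2500, per the labels' protocols, and the RNA kit is named as RNeasy Mini in the design text and miRNeasy in the protocol. The submitters' processing notes name GRCm38 and, among tools, STAR 2.4.1d, HTSeq 0.6.1, CASAVA 1.8.2, Trim Galore and FastQC. Settings and strand use in counting: not given in the sources used here. Each deposited table holds whole-number counts per gene, not normalized by the authors. Reads that fit several genes may have been dropped or split by the counting, and overlapping genes cannot be told apart without strand.

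IDs were matched to symbols and positions in GENCODE M21 (46005 of 46517 matched). The main test was edgeR 4.0.16 in R 4.3.3 with limma 3.58.1: TMM scaling, a filterByExpr filter (minimum count 10), and a quasi-likelihood model in which each group has its own mean and all 10 libraries share the spread (common biological coefficient of variation 0.249). Benjamini-Hochberg adjustment ran over all 17823 genes tested, and genes were called at an adjusted p under 0.05. Standard errors come from the fold change and its F statistic. A total of 6 comparisons and 16 alternatives were run, among them DESeq2 1.42.0; the fit was tested on simulated data with 200 changed genes. Tables used Python 3.11.15 and pandas 2.3.3, and figures matplotlib 3.10.9. Shared sequence was counted over 100-base stretches of GENCODE M21 transcripts, and overlaps over annotated exons.

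The 34 members, the context lists and the tests were chosen with earlier results of these data known. Values in every library are given for members called in G2-APOL1 against G1-APOL1, the 12 members with the lowest p against Control, the 6 with the lowest p against wild type (single mutant), the 3 regulators, and H2-K1, H2-D1, B2m, H2-Aa, H2-Ab1 and Cd74. Of each context list at most 3 genes with the lowest p against Control are named, with Ifng, Irf1, Psmb5, Psmb6 and Psmb7. Lgmn, Cd274 and Pdcd1lg2 are named after their values were seen, and Ifi30 because it encodes no protease. H2-Ea and H2-T9 of the context lists matched no ID by symbol. An item withheld from this text is not reported here. Replicates are numbered by accession and do not pair samples.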

Additional observations from a re-analysis of the deposited data

Results flagged for a closer look

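Psme2, which encodes the beta subunit of the PA28 proteasome activator, was called different between the risk alleles. Its log2 fold change was -0.70 in G2-APOL1 against G1-APOL1, with an adjusted p of 0.0482 in edgeR's quasi-likelihood test. It was the 1 member of 34 called lower, near the share of 2.88% called lower over all genes tested. It was at 98.4 and 81.6 CPM in G2-APOL1 kidneys, against 136 and 157 CPM in G1-APOL1 kidneys. Leaving out 1 library at a time, 0 members were lower in G2-APOL1 in 8 of 10 fits, 9 without Control replicate 2 and 1 without Control replicate 3. The cause was not tested.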

How the results depend on the processing

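Control replicate 2 decided more of the results than any processing choice. Leaving out 1 library at a time, the members that rose numbered 4 to 28 against Control, 12 to 26 against wild type (single mutant), 5 to 26 for G1-APOL1 and 0 to 20 for G2-APOL1 against Control. Members that fell numbered 0 to 1 against wild type (single mutant) and 0 to 1 for G1-APOL1 against Control, and those lower in G2-APOL1 than in G1-APOL1 numbered 0 to 9. The highest counts against Control came without Control replicate 2. Nlrc5 against Control reversed, to -0.04 without Control replicate 1 and -0.11 without Control replicate 3, within a range of -0.11 to 1.70. With only the groups compared in the fit, 5 members rose against Control. With DESeq2, 2 rose in G2-APOL1 against Control, 7 were lower in G2-APOL1 than in G1-APOL1, and 1 fell against wild type (single mutant). Without a filter on low counts these were 3 and 3 for the first 2 of these comparisons. Relative log expression size factors gave 2 lower in G2-APOL1 than in G1-APOL1. With library totals in place of TMM, 5 rose in G2-APOL1 against Control and 13 with the risk alleles against Control. That scaling moved the median of all genes by 0.28 against Control, and over all genes 6037 rose and 1600 fell, in place of 3441 and 3212. No paired analysis was possible because replicate numbers follow accession order and pair no samples. Groups of 2 and 3 libraries limit precision, and genes near 1 CPM such as H2-Oa rest on 13 to 80 counts per library.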
